A study of Mus musculus with 38 samples.

Results

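SALL4-delN12, a form of SALL4 that cannot bind the NuRD complex, was introduced into mouse fibroblasts with no other factor, and the RNA of these cells was sequenced on days 1, 5, 9 and 11. These 4 libraries were chosen by their labels from the 38 samples of the series, and they are 4 of the 17 libraries of 1 table of gene expression. All genes of that table were followed. It lists 35976 symbols, of which 1396 are short RNAs and were left out. Each later day was set against day 1, for the 12728 to 13105 genes that reached 1 FPKM (fragments per kilobase of transcript, scaled to the library size) in either library of the comparison.

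The study asks how BMP4 and SALL4 steer fibroblasts towards naive pluripotency or primitive endoderm. All cells came from E13.5 mouse embryonic fibroblasts (MEFs) of crosses between OG2 and 129S4/SvJaeJ mice. The SALL4-delN12 group received retrovirus (pMXs) coding for SALL4 without its N-terminal 12 residues. It was grown in iCD3 medium, which held the inhibitors CHIR99021, SGC0946, Y27632 and GSK-LSD1 (LSD1-HCL in the labels), the factors bFGF and mLIF, vitamin C and TV, and it got no BMP4. The SALL4-WT group, set beside it over the same days, carried the full-length factor in place of the mutant. Another library, day 0 of the JGES group (Jdp2, Glis1, Esrrb and Sall4) without BMP4, carries other viruses and served only as a second baseline. An uninfected or empty-vector library of the course was not analysed here, so changes are those after day 1. Each day is 1 library of unsorted cells, so no test or error is given. A gene is said to have risen or fallen where log2(FPKM + 1) differed from day 1 by at least 1, and every difference below is on that scale, which understates the change of low genes. Days 5, 9 and 11 share the day 1 library. In bulk RNA, fewer cells of a kind and less RNA in each cell cannot be told apart.

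Primitive endoderm (PrE, or hypoblast) forms in the inner cell mass beside the epiblast. GATA6 acts early in it and SOX17 and GATA4 later, and it gives rise to parietal endoderm, which lays down a laminin-rich basement membrane, and to visceral endoderm, an absorptive and secretory epithelium. SALL4 is a zinc-finger factor of early embryonic cells. Through its N-terminal motif it recruits NuRD, a complex that joins nucleosome remodelling by CHD4 to histone deacetylation by HDAC1 and HDAC2 and for the most part represses genes.

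The summed FPKM per library lay between 467629 and 504285, and read numbers are not given in the table, so the depth is unknown. Mitochondrial messenger RNAs took 7.61%, 10.4%, 9.77% and 15.0% of the sum on days 1, 5, 9 and 11. Sall4 itself, which the table does not split into viral and endogenous RNA, was at 809, 623, 971 and 428 FPKM, high in each library and lowest at day 11. Col1a2, a collagen chain gene of fibroblasts, was high throughout at 453, 534, 480.4 and 577 FPKM. Macrophage genes were also present and are given beside the results they accompany.

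More genes passed the threshold upwards than downwards on each day. At day 5, 732 of 12728 genes were higher (5.75%) and 330 were lower (2.59%) than at day 1. At day 9, 929 of 12844 were higher (7.23%) and 407 lower (3.17%). At day 11, 1316 of 13105 were higher (10.0%) and 572 lower (4.36%). A gene can fall past the threshold only from at least 1 FPKM at day 1, and of the 11720 genes with that level, 641 were higher (5.47%) and 572 lower (4.88%) at day 11, so the counts are close there. The median over all compared genes was 0.03 on each of these days. Of the 1316 genes higher at day 11, 547 were past the threshold at day 5 already and 685 at day 9, and 1019 had their highest level at day 11, an order that choosing them at day 11 favors. The steps between later days were smaller: from day 5 to day 9, 175 genes rose (1.36%) and 106 fell (0.824%), and from day 9 to day 11, 284 rose (2.16%) and 234 fell (1.78%).

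PrE genes rose late and nearly all together. Of the 12 genes on this list, 2 were higher at day 5, 8 at day 9 and 11 at day 11, and none was lower on any of these days. The median difference from day 1 was 0.39, 1.46 and 2.58, beside 0.03 over all compared genes. Of all compared genes, 5.75%, 7.23% and 10.0% were higher on days 5, 9 and 11. Of the 9 members with at least 1 FPKM already at day 1, 8 rose by day 11, beside 5.47% of all 11720 genes with that level at day 1. The list holds genes that the study itself names in such cells, so it is not independent evidence of the direction.

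Among the PrE transcription factors, Gata4, which sustains the endoderm program, was at 0.502, 1.91, 9.48 and 29.3 FPKM on days 1, 5, 9 and 11. Sox17, an SRY-box factor of endoderm, was listed at 0 on day 1 and was then at 0.162, 4.88 and 16.2 FPKM. Foxa2, a forkhead factor of endoderm, was at 0.143, 0.0460, 2.59 and 7.68 FPKM. All 3 stayed under 2 FPKM through day 5, and each was highest at day 11. Gata6, the early factor of the lineage, was at 4.09, 2.52, 3.25 and 7.49 FPKM, and its difference of 0.74 at day 11 was the smallest of the 12. Pitx1, a paired-like homeobox factor, was high from the start and rose by 2.13, at 26.5, 38.3, 55.5 and 119 FPKM. Klf4, a Krüppel-like factor of pluripotent cells and PrE, was at 3.64, 2.45, 8.08 and 17.5 FPKM, lowest at day 5, and its difference of 2.00 at day 11 was 0.50 against day 1 of SALL4-WT. Cited1, a transcriptional co-activator, had the largest rise on the list, 4.88, at 3.79, 16.4, 34.9 and 140.5 FPKM, and was past the threshold by day 5.

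Surface and matrix members of the list rose as well. Lama1, the laminin chain of the early embryonic basement membrane, was at 1.31, 2.35, 18.96 and 50.2 FPKM and differed by 4.47 at day 11. Pth1r, the parathyroid hormone receptor of parietal endoderm, was at 2.85, 4.16, 13.7 and 45.0 FPKM and differed by 3.58. Both moved mostly after day 5. Eva1a, a membrane protein linked to autophagy, was at 2.13, 5.73, 6.55 and 13.7 FPKM and was the other early riser. Dab2, an endocytic adaptor, was at 6.32, 6.80, 10.7 and 22.7 FPKM and differed by 1.70, but by -0.15 against the day 0 JGES library and by 0.98 against day 1 of SALL4-WT. Chst15, a sulfotransferase of chondroitin sulfate, was at 2.31, 3.27, 4.25 and 9.50 FPKM and differed by 1.66, but by 0.70 against the day 0 JGES library. Each of the 12 had its highest level of the 4 days at day 11.

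**Figure D1:**
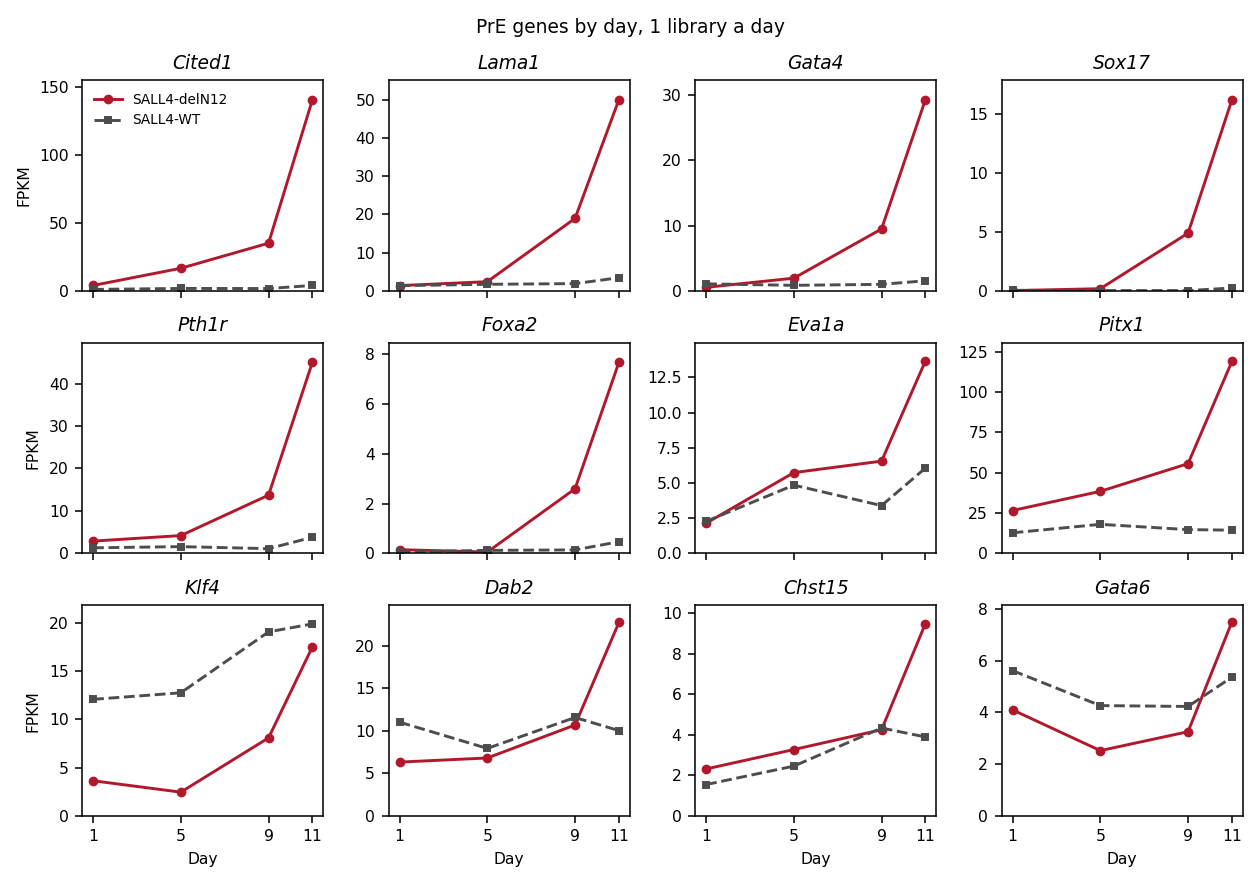
Each panel shows 1 PrE gene, with the day on the x axis and FPKM on the y axis, which starts at 0; SALL4-delN12 and SALL4-WT are drawn as separate lines with 1 library per point. The SALL4-delN12 line ends at its highest point in all 12 panels, and Klf4 is the gene for which SALL4-WT is higher at day 11, at 19.9 FPKM against 17.5 FPKM.

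Macrophage transcripts also rose at day 11. At day 9, when 8 PrE genes were higher than at day 1, no macrophage gene was higher and 1 was lower. Of the 12 macrophage genes listed, 6 rose at day 11 and none fell, 2 were under 1 FPKM on every day, and the median over all 12 was 0.82, beside 10.0% of all genes that rose. Their summed level was 424, 521, 576 and 1203 FPKM on days 1, 5, 9 and 11. Lyz2, the lysozyme gene, was at 205, 266, 329 and 698 FPKM, the largest part of the sum. Cd68, a lysosomal membrane gene, was at 22.7, 35.8, 32.9 and 69.7 FPKM. C1qc, a complement gene, was at 27.3, 42.2, 44.8 and 82.3 FPKM. None of the 12 was listed at 0 in these libraries, while Ptprc, the pan-leukocyte gene, and Cx3cr1 were the members under 1 FPKM. The part of macrophages in the changes at day 11 was not tested.

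Promoter sequences of 3 PrE genes are shown here so that the sequence in front of the genes with large rises, and an open-chromatin peak near a start site, can be read beside their values. S100g, the gene with the largest rise of all, is added and was chosen after its values were seen. Each runs 5′ to 3′ over the 250 bases before the most upstream start in RefSeq (build GRCm38.p6, the assembly also called mm10). Capitals mark matches on either strand. The letters searched were AGATAA, or TGATAA in its place, for the GATA family. For SOX factors they were ACAATG, with ACAAAG as its variant, and for forkhead factors TGTTTAC, with TGTTTGC as its variant.
Cited1: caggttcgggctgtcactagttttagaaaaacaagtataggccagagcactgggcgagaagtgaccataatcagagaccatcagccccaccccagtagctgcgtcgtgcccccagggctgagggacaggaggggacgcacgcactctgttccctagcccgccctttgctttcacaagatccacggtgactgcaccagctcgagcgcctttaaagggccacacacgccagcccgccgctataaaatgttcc
Pth1r: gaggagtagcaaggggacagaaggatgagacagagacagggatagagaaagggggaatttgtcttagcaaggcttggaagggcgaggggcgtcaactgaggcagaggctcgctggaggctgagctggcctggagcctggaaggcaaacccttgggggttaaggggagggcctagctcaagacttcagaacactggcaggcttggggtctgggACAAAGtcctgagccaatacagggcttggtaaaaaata
Foxa2: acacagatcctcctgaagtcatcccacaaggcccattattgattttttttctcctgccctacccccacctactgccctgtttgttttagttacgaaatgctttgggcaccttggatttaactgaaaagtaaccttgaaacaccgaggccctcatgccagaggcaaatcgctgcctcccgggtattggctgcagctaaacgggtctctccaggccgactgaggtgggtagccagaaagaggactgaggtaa
S100g: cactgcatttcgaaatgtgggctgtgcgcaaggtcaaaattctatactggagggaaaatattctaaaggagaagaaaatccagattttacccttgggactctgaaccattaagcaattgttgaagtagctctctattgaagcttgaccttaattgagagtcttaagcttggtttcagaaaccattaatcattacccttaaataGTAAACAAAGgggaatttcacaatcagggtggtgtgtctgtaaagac

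All 4 are on the minus strand, at chrX:102252182-102252431 for Cited1, chr9:110747146-110747395 for Pth1r, chr2:148046970-148047219 for Foxa2 and chrX:162964600-162964849 for S100g, and each ends at the first exon of its annotated transcript. The stretches of Cited1 and Foxa2 hold no match, which says only that these letters are not in this window. That of Pth1r holds ACAAAG at position -38 from the start. That of S100g holds GTAAACA, the reverse of TGTTTAC, at -47 and ACAAAG at -43, and these overlap. Of 32851 RefSeq promoter stretches of this length, 16.6% held a GATA match, 25.2% a SOX match and 7.29% a forkhead match, so a match is a description and not a site. The stretches of the PrE genes Eva1a, Chst15 and Klf4, not printed, held no match, that of Dab2 held TGATAA at -179, and that of Hnf4a, a nuclear receptor of endoderm, held AGATAA at -52. Gata4, Sox17, Lama1 and Pitx1 had no entry in the promoter table.

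Genes of ParE-labelled cells, a list drawn from other cells of the series, rose in these libraries too. It was made from single-cell counts of JGES cells grown with BMP4. In that sample, 2372 cells that the authors labelled ParE were set against the other 8963 cells. The other labels match the intermediate, endothelial and placenta-like clusters of the paper. ParE thus stands where the paper has its primitive endoderm-like cells (PrECLCs). The paper reports these to be nearer to PrE than to parietal endoderm, so the list is not one of parietal endoderm. Among genes seen in at least 10% of the ParE-labelled cells, the 100 with the highest ratio were taken. Of these 100 genes, 16 were higher and 2 lower than at day 1 at day 5, 42 were higher and 1 lower at day 9, and 71 were higher and 1 lower at day 11. A further 24 stayed under 1 FPKM on every day. Over all compared genes, 5.75% were higher and 2.59% lower at day 5, 7.23% and 3.17% at day 9, and 10.0% and 4.36% at day 11. The median over all 100 was 0.19, 0.80 and 1.89, beside 0.03 over all compared genes, and at day 11 it was 1.73 against day 1 of SALL4-WT and 1.59 against day 0 of JGES. Of the 21 with at least 1 FPKM at day 1, 18 rose and 1 fell by day 11, beside 5.47% and 4.88% of all genes with that level. It shares 9 genes with the PrE list, so the lists are not independent. Macrophage genes, given above, also passed the threshold upwards at day 11, though none did at day 9.

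Cldn6 and Cldn7, tight-junction genes of early epithelia, had the largest rises of that list. Cldn6 was at 0.445, 7.01, 12.9 and 75.7 FPKM and Cldn7 at 0.0389, 0.563, 5.25 and 32.0 FPKM, with the last step from day 9 to day 11 the largest in FPKM. Gpx2, a glutathione peroxidase of gut epithelium, was at 0.317, 0.358, 4.32 and 20.9 FPKM. Fgfr4, a receptor of endoderm, was at 0.0515, 0.0166, 1.67 and 8.06 FPKM.

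Other endoderm factors rose with the PrE genes. Of 16 listed endoderm transcription factors, 5 of them also on the PrE list, 9 rose and 1 fell at day 11, 2 were under 1 FPKM throughout, and the median over all was 1.49, beside 10.0% of all genes that rose and 4.36% that fell. Of the 7 members with at least 1 FPKM at day 1, 3 rose and 1 fell. Hnf4a, a nuclear receptor of visceral endoderm, was listed at 0 on day 1 and was then at 0.0927, 0.675 and 2.02 FPKM. This is a low level, reached after day 5. Gata2, a GATA factor of blood and trophoblast, was at 2.46, 14.1, 19.2 and 14.1 FPKM and had risen by day 5. Foxq1, a forkhead factor, was at 4.30, 15.0, 17.0 and 22.2 FPKM and had also risen by day 5. The member that fell was Sox7, an F-group SOX factor of parietal endoderm and endothelium, by 2.13, at 31.2, 16.0, 17.6 and 6.35 FPKM, although at day 11 it stood 2.88 above the day 0 JGES library.

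Visceral endoderm genes rose by day 11 or stayed under 1 FPKM. Of 20 genes, 13 rose, none fell and 7 were under 1 FPKM on every day, with a median over all 20 of 1.58, beside 10.0% and 4.36% of all genes, and the 5 with at least 1 FPKM at day 1 were all among those that rose. Apoe, an apolipoprotein that macrophages also make, was at 96.4, 625, 965 and 1869.7 FPKM. Fabp3, a fatty acid binding protein, was at 15.7, 80.4, 122 and 296 FPKM. Both went up from day to day. Ihh, a hedgehog ligand of visceral endoderm, was listed at 0 on day 1 and reached 10.8 FPKM at day 11. Apoa1, the main apolipoprotein of HDL, was at 0.343, 11.6, 14.9 and 11.8 FPKM. Trf, the transferrin gene, was at 3.34, 6.64, 13.0 and 26.6 FPKM. Afp, the alpha-fetoprotein gene and a defining marker of the tissue, stayed under 1 FPKM and ended at 0.675 FPKM.

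Of 16 genes of parietal endoderm and basement membrane, 7 rose and 1 fell at day 11, with a median of 0.89, beside 10.0% and 4.36% of all genes. Of the 15 with at least 1 FPKM at day 1, 6 rose and 1 fell, beside 5.47% and 4.88%. Srgn, the serglycin gene, which blood cells also express, was at 0.957, 2.66, 8.69 and 18.4 FPKM. Thbd, the thrombomodulin gene of parietal endoderm, was at 1.06, 2.02, 4.09 and 7.32 FPKM. Lama1 differed more than the chains it assembles with, which were already abundant. Lamb1 was at 35.6, 34.1, 61.3 and 94.0 FPKM, a difference of 1.38. Lamc1 was at 63.5, 68.8, 99.1 and 119 FPKM, a difference of 0.90. Col4a1, a collagen IV chain, was at 105, 39.6, 87.4 and 181 FPKM, so that it fell by day 5 and then stood 0.78 above day 1 at day 11. The member that fell was Hspg2, the perlecan gene, at 59.1, 32.8, 35.7 and 28.4 FPKM.

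Epithelial genes rose in growing number. Of 24 genes, 7 rose at day 5, 11 at day 9 and 16 at day 11, and 1 fell at day 11, with a median over all of 1.31 at that day. Over all compared genes, 5.75%, 7.23% and 10.0% rose on these days, and 4.36% fell by day 11. Of the 10 list members with at least 1 FPKM at day 1, 4 rose and 1 fell, beside 5.47% and 4.88% of all genes with that level. Cdh1, the E-cadherin gene, was at 1.55, 16.3, 11.2 and 20.5 FPKM, most of it reached by day 5. Epcam, an adhesion gene of epithelia, was at 0.685, 6.51, 10.9 and 38.0 FPKM and went further up after day 9. Spint1, an inhibitor of surface proteases, was at 0.929, 9.34, 9.21 and 17.3 FPKM. Krt8 and Cldn4, a keratin and a claudin gene of simple epithelia, were high from day 1 on. Krt8 was at 141, 166, 170.1 and 169 FPKM and differed by 0.26 at day 11. Cldn4 was at 260.5, 263, 235 and 148 FPKM and differed by -0.81. The member that fell was Krt7, at 78.0, 104, 42.0 and 32.4 FPKM.

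Fibroblast identity genes moved in both directions against day 1. Of 22 genes, 4 rose and 4 fell at day 11, 4 were under 1 FPKM throughout, and the median over all was -0.01, 0.02 and 0.08 on days 5, 9 and 11. Over all genes 10.0% rose and 4.36% fell by day 11. Over the 18 members that reached 1 FPKM the medians were -0.01, 0.10 and 0.12 against day 1, and lower against the other baselines, at -0.40, -0.04 and -0.43 against day 1 of SALL4-WT and at -0.59, -0.37 and -0.51 against day 0 of JGES. Pdgfra, a growth factor receptor gene, rose, at 6.58, 23.7, 36.7 and 45.2 FPKM, and which cells it came from was not tested. Snai2, a zinc-finger factor of mesenchymal cells, rose, at 5.63, 18.6, 17.1 and 29.9 FPKM. Cdh11, the cadherin of mesenchyme, rose, at 12.3, 27.8, 35.7 and 40.5 FPKM. All 3 were lowest at day 1. Osr1, a zinc-finger factor of embryonic mesenchyme, fell by 2.11, at 5.47, 1.08, 0.153 and 0.505 FPKM. Cd34, a sialomucin of stromal cells, fell by 2.11, at 6.38, 1.68, 3.36 and 0.710 FPKM. Prrx1, a homeobox factor of limb mesenchyme, was nearly level at 10.5, 12.9, 10.3 and 12.6 FPKM.

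Matrix and contractile genes moved in both directions, and the chains of collagen VI fell together. Of 26 genes, 1 rose and 8 fell at day 5, 4 rose and 3 fell at day 9, and 6 rose and 8 fell at day 11, with medians of -0.50, -0.13 and -0.27, beside 10.0% and 4.36% of all genes at day 11. Against day 1 of SALL4-WT the median at day 11 was 0.42 instead, and against day 0 of JGES it was -1.23. Col6a1 was at 245, 80.7, 121 and 36.6 FPKM and fell by 2.71 at day 11. Col6a2 was at 137, 42.6, 63.0 and 19.3 FPKM and fell by 2.76, and Col6a3 was at 117, 79.7, 105 and 35.9 FPKM and fell by 1.68. Col3a1, a fibrillar collagen, rose instead, at 7.31, 21.4, 28.0 and 31.0 FPKM. Lum, the proteoglycan lumican, rose, at 1.496, 2.44, 7.21 and 10.2 FPKM. Myl9, a myosin light chain of contractile cells, rose, at 38.6, 71.4, 94.8 and 212 FPKM. Col1a1 was at 1666, 1424, 1356 and 1065 FPKM and Vim, an intermediate filament gene of mesenchyme, at 458, 433, 424 and 469.5 FPKM, and neither passed the threshold.

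**Figure D2:**
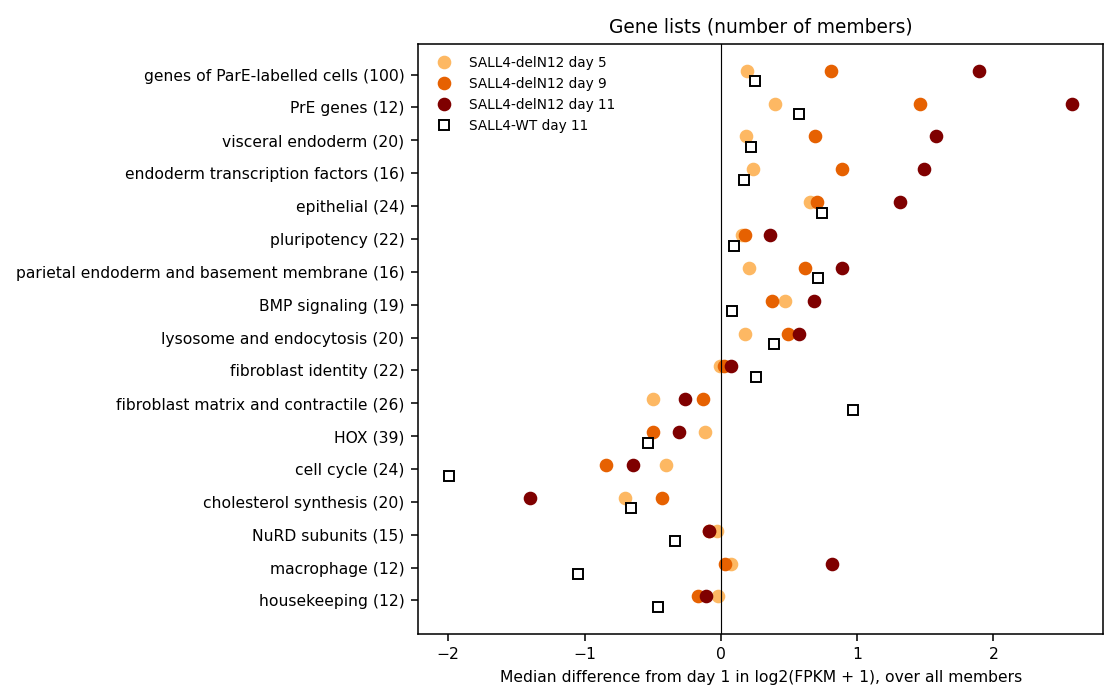
Each row is a gene list with its number of members; the x axis is the median difference from day 1 in log2(FPKM + 1) over all members, for SALL4-delN12 at days 5, 9 and 11 and for SALL4-WT at day 11. The endoderm lists lie further right on each later day, up to 2.58 for PrE genes, while cholesterol synthesis lies at -1.40 and housekeeping genes at -0.11 at day 11.

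Against day 1, cholesterol synthesis was the list with the most falls at day 11, but it was nearly level against day 0 of JGES. Of 20 genes of synthesis and uptake, 2 fell at day 5, 1 at day 9 and 13 at day 11, none rose, and the medians were -0.70, -0.43 and -1.40, beside 4.36% of all genes that fell by day 11. Against day 1 of SALL4-WT the median at day 11 was -1.11, with 12 lower, and against day 0 of JGES it was 0.06, with 1 higher and 2 lower. Idi1, an isomerase of the isoprenoid pathway, was at 82.2, 52.1, 49.5 and 21.8 FPKM. Msmo1, a sterol oxidase, was at 124, 70.8, 72.5 and 37.1 FPKM. On the log2(FPKM + 1) scale, though not in FPKM, both had their largest step after day 9. Cell cycle genes had a median of -0.65 at day 11, with 6 of 24 lower and none higher. Ccne1, the cyclin E1 gene, fell, at 44.7, 21.3, 20.4 and 11.6 FPKM. Aurka, a mitotic kinase gene, fell, at 26.2, 14.9, 11.4 and 10.6 FPKM. Mki67, a gene of cycling cells, was at 12.6, 12.2, 6.18 and 7.34 FPKM and differed by -0.71.

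Of 15 genes of the subunits of NuRD itself, none rose and 1 fell at day 11, with a median of -0.09, beside 10.0% of all genes that rose and 4.36% that fell. Chd4, the remodeller, was at 45.4, 50.001, 44.4 and 48.7 FPKM. Hdac1, a deacetylase, was at 28.0, 24.6, 22.9 and 23.4 FPKM. Mbd3, which joins both parts, was at 119.8, 81.6, 93.4 and 86.4 FPKM, highest at day 1. The subunit that fell was Cdk2ap1, by 1.02, at 155, 107, 76.9 and 76.0 FPKM. None of 12 housekeeping genes passed the threshold, and their median was -0.11. Counts this small are near the share over all genes that fell.

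Some BMP pathway genes rose in this medium without BMP4. Of 19 genes, 8 rose and none fell at day 11, with a median over all of 0.69, and of the 15 with at least 1 FPKM at day 1, 5 rose, beside 5.47% of all genes with that level. At day 11, 4 were higher and 3 lower than at day 1 of SALL4-WT, and against day 0 of JGES 5 were higher and 2 lower, with a median of -0.23. The ligand gene Bmp4 was at 24.4, 40.8, 42.5 and 63.2 FPKM, and the ligand gene Bmp6 at 0.188, 2.18, 3.45 and 6.74 FPKM. Grem1, a secreted antagonist, was at 1.56, 9.08, 21.3 and 14.7 FPKM, highest at day 9. Among direct targets, Id3 rose, at 105, 267, 270.1 and 399 FPKM. Id1, another direct target, was at 215, 214, 223 and 261 FPKM and differed by 0.28. Ligand, antagonist and target thus rose by day 11, but not every target. Of 18 genes of FGF signalling and its feedback, 4 rose and 2 fell, or 2 and 2 of the 10 with at least 1 FPKM at day 1, Fgfr4 being the largest rise and Spry4, a feedback inhibitor, the largest fall, at 14.8, 5.43, 8.03 and 3.88 FPKM. Of 12 WNT target genes, 2 rose and 1 fell, or 1 and 1 of the 10 with that level at day 1. With so few members, these FGF and WNT counts are not set apart from the 10.0% of all genes that rose and 4.36% that fell. Against day 0 of JGES, 2 FGF genes were higher and 8 lower, and 8 WNT target genes were higher and none lower. Dkk1, a WNT antagonist that visceral endoderm also makes, was at 0.201, 6.12, 4.95 and 9.74 FPKM. Ccnd1, the cyclin D1 gene, fell, at 824, 386, 501 and 259.8 FPKM.

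Of 22 pluripotency genes, 6 rose at day 11, none fell and 13 were under 1 FPKM on every day, with a median over all of 0.36. Over all genes 10.0% rose and 4.36% fell. Of the 3 members with at least 1 FPKM at day 1, 2 rose, beside 5.47% of all genes with that level. Against day 0 of JGES, 3 of the 22 were higher at day 11 and 2 lower, with a median of 0.19. The JGES group was itself given Esrrb, a member of this list, by virus. Esrrb, a nuclear receptor of naive and extra-embryonic cells, was at 1.46, 21.0, 15.5 and 6.49 FPKM, highest at day 5. Lin28a, an RNA-binding protein of early embryonic cells, was listed at 0 on day 1 and was then at 0.0219, 2.57 and 6.65 FPKM. Tdh, the threonine dehydrogenase of naive cells, was at 0.0600, 0.116, 2.15 and 6.71 FPKM. Pou5f1, which encodes OCT4, was at 0.117 FPKM on day 1, was listed at 0 on day 5 and was at 0.639 and 2.58 FPKM later.

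Lysosomal, imprinted and HOX genes are given beside the 10.0% of all genes that rose and 4.36% that fell by day 11. Of 20 lysosomal and endocytic genes, 8 rose and none fell, and of the 17 with at least 1 FPKM at day 1, 6 rose. Clu, the clusterin gene, was at 33.3, 77.7, 235 and 244 FPKM. Lgmn, a lysosomal protease gene that macrophages also express, was at 51.0, 142, 153 and 233 FPKM. Of 16 imprinted genes, 4 rose and 2 fell, but against day 0 of JGES 2 were higher and 7 lower. H19, a non-coding RNA of fetal and extra-embryonic tissue, was at 1439.9, 9915, 8926 and 9919.6 FPKM and was the most abundant gene of the table at days 5 and 9. Dlk1, a Notch-like gene of fetal mesenchyme, fell, at 24.3, 3.69, 4.69 and 3.603 FPKM. Of 39 HOX genes, 1 rose and 8 fell at day 9, with a median over all of -0.50, beside 7.23% and 3.17% of all genes. At day 11, 2 rose and 4 fell, with a median of -0.31, whereas 19 were lower than at day 1 of SALL4-WT and 18 lower than at day 0 of JGES. Hoxc9 fell by 2.05, at 11.3, 2.03, 1.28 and 1.97 FPKM. Hoxc10, its neighbor, fell by 1.67, at 12.01, 6.09, 3.16 and 3.09 FPKM. Hoxb9 rose, at 11.5, 22.2, 22.1 and 28.8 FPKM.

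Lists of other lineages are given by their counts at day 11, to be read beside the 10.0% of all genes that rose and 4.36% that fell. Of 12 trophoblast genes, 4 rose and none fell, 5 were under 1 FPKM on every day, and 1 of the 3 with at least 1 FPKM at day 1 rose. Cdx2, a trophoblast factor, was at 0.105, 2.34, 1.84 and 2.15 FPKM. Of 12 cartilage and bone genes, 8 of them measured at 1 FPKM or more, 4 rose and 2 fell. Alpl, the alkaline phosphatase gene of bone and of pluripotent cells, was at 0.109, 2.45, 3.28 and 5.74 FPKM. Of 12 endothelial genes, 7 of them measured at that level, 2 rose and 1 fell, the last being the cadherin gene Cdh5, at 9.54, 3.68, 5.05 and 1.83 FPKM. Of 12 muscle genes, 5 of them measured, 2 rose and 2 fell. Acta1, the skeletal actin gene, rose, at 5.35, 21.7, 25.4 and 42.4 FPKM, and Tnnt2, the cardiac troponin gene, fell, at 39.4, 29.0, 20.1 and 6.96 FPKM. Of 10 adipocyte genes, 4 of them measured, 1 rose, Lpl, the lipoprotein lipase gene, at 0.809, 5.12, 7.33 and 15.4 FPKM, and Cebpa fell.

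The remaining lists are counted in the same way, beside 10.0% and 4.36% of all genes. Of 12 neural genes, 3 of them measured at 1 FPKM or more, 2 rose and none fell, and of 12 germ cell and 2-cell genes, 1 of them measured, none passed the threshold. Of 11 AP-1 genes, 2 rose and 2 fell. Of 15 genes of senescence and p53, Cdkn2a, an inhibitor locus of cultured fibroblasts, rose, at 63.2, 127, 185 and 193 FPKM. Gdf15, a stress-induced cytokine, fell, at 94.9, 49.1, 29.4 and 19.8 FPKM. Of 16 glycolytic genes, 1 fell, the enolase gene Eno1, at 657, 474, 409 and 324 FPKM. In the SALL family, Sall1 rose to a low level, at 0.338, 2.09, 2.15 and 1.95 FPKM.

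The largest rises over the whole table are given next, whatever the list. S100g, which encodes the calcium-binding protein calbindin-D9k, was at 0.118, 4.77, 179 and 877 FPKM and differed by 7.33 at day 9 and 9.62 at day 11. Ccl8, a chemokine, was at 8.40, 159, 414 and 923 FPKM. Gpx3, the secreted glutathione peroxidase, was at 44.2, 606, 849 and 1647 FPKM. All 3 were higher on each later day than on the day before it in the course. Peg10, an imprinted gene of placenta, was at 2.00, 42.5, 76.6 and 162 FPKM, which at day 11 differed by -1.31 from the day 0 JGES library. Mmp13, a matrix metalloproteinase, was at 1.65, 17.5, 69.3 and 102 FPKM. Bpifb4, a secreted protein, was at 0.182, 9.70, 36.1 and 44.9 FPKM. These 3 had passed the threshold by day 5. Aqp8, a water channel, was at 0.114, 0.477, 8.79 and 38.2 FPKM and passed it only by day 9. Car4, a membrane-bound carbonic anhydrase, was listed at 0 on day 1 and was then at 1.92, 7.64 and 36.8 FPKM, the last of which differed by -0.062 from the day 0 JGES library.

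A further set had reached high levels by day 5. Cryba2, a lens crystallin, was at 0.481, 56.6, 14.5 and 29.5 FPKM. Cryaa, another crystallin, was at 8.14, 152, 173 and 175 FPKM. Dmkn, a secreted epidermal protein, was at 0.180, 40.5, 18.9 and 19.4 FPKM. Only Cryaa of these 3 had its highest level at day 11. Col26a1, a collagen, was at 1.42, 69.7, 105 and 93.0 FPKM. Cygb, a globin of fibroblasts, was at 1.81, 52.9, 102 and 28.7 FPKM. Mmp11, a matrix metalloproteinase of stroma, was at 16.6, 285, 371 and 461 FPKM. Cartpt, a neuropeptide precursor, was listed at 0 on day 1 and was then at 29.2, 99.5 and 33.5 FPKM, highest at day 9. Hba-a1, an alpha-globin gene, was at 3.23, 102, 162 and 88.6 FPKM, and Hba-a2 at 3.21, 105, 171 and 95.5 FPKM. These are near-identical copies whose reads may have been split between them, so the level of each is uncertain.

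The largest falls were taken in the same way. Ccl5, a chemokine of activated cells, was at 69.5, 1.74, 1.16 and 0.530 FPKM and fell by 5.53 by day 11. Cxcl2, a neutrophil chemokine, was at 10.5, 0.654, 0.284 and 0.833 FPKM. Ccl6, another chemokine, was at 27.9, 1.25, 1.18 and 6.36 FPKM. For each of the 3, day 1 was the highest library. Mmp9, a gelatinase, was at 109, 6.03, 26.2 and 5.39 FPKM. Slc7a5, a transporter of large neutral amino acids, was at 389, 50.5, 19.8 and 13.4 FPKM. Thrsp, a regulator of lipid synthesis, was at 44.5, 24.9, 2.79 and 1.79 FPKM. Slc7a5 had fallen by day 5 and Thrsp only by day 9. These falls depend on the library taken as baseline: against day 0 of JGES, Ccl5 was higher by 1.46 at day 5, Cxcl2 by 0.73 and Ccl6 by 1.17 at day 5, Slc7a5 by 1.70 at day 5 and Thrsp by 1.48 at day 11. Chac1, which degrades glutathione, was at 35.4, 6.08, 4.51 and 4.31 FPKM. Syt13, of the synaptotagmin family, was at 34.3, 4.59, 3.10 and 1.95 FPKM. Cd82, a tetraspanin, was at 137, 21.8, 26.7 and 13.0 FPKM. All had fallen by day 5. Chst1, a sulfotransferase, was at 38.9, 10.1, 6.84 and 3.10 FPKM, and Sdc3, a syndecan, at 35.6, 4.56, 4.50 and 7.71 FPKM. Several of these falls were under the threshold against another baseline. Against day 0 of JGES, Chac1 at day 9 differed by -0.05, Cd82 at day 11 by -0.50 and Slc7a5 at day 11 by -0.15. Against day 1 of SALL4-WT, Chac1 at day 9 differed by -0.73, Syt13 at day 9 by -0.61, Slc7a5 at day 9 by -0.53 and Chst1 at day 11 by -0.79. Against that library, Slc7a5 at day 5 was higher by 0.77 and Thrsp was higher by 1.76 at day 9 and 1.32 at day 11.

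Further large falls were these. Pde2a, a phosphodiesterase, was at 35.1, 27.9, 8.63 and 3.01 FPKM. Sema7a, a membrane-anchored semaphorin, was at 40.9, 11.8, 23.1 and 3.69 FPKM. Gal, the galanin gene, was at 36.8, 17.5, 3.44 and 4.92 FPKM. Sema7a and Gal had fallen by day 5 and Pde2a only by day 9. Against the day 0 JGES library, Pde2a at day 11 (1.20), Sema7a at day 11 (0.60) and Gal at day 9 (1.18) were above and not below the baseline, as were Pde2a at day 11 (0.26) and Gal at day 9 (0.11) against day 1 of SALL4-WT. Apln, the gene of the peptide apelin, was at 13.3, 0.848, 1.29 and 0.806 FPKM. Actg2, a smooth muscle actin, was at 11.8, 0.663, 0.195 and 2.49 FPKM. Mcpt8, a protease of basophils, was at 12.1, 0.525, 1.93 and 0.840 FPKM. Rps28, a ribosomal protein gene with processed copies in the genome, was at 147, 10.6, 584 and 556 FPKM, so that it fell by day 5 and stood above day 1 afterwards. Its reads may be shared with the copies, and its level is uncertain. Against day 1 of SALL4-WT, Actg2 differed by -0.28 at day 5 and -0.76 at day 9, and against day 0 of JGES, Mcpt8 at day 5 stood 0.61 above the baseline.

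Among transcription factors, 196 had at least 5 FPKM at day 1 or day 11, of which 42 rose and 31 fell, where 8.31% of all 8621 genes with that level rose and 5.30% fell. Gata4, Sox17, Foxa2 and, by family symbol, Cited1 and Lin28a are among the 8 largest rises. Rhox5, an X-linked homeobox gene of the reproductive cluster, led them at 0.280, 10.9, 33.1 and 41.6 FPKM. Rhox6, of the same cluster, was listed at 0 on day 1 and was then at 0.756, 3.79 and 14.7 FPKM. Foxo4, a forkhead factor regulated by insulin signalling, was at 4.26, 10.4, 14.5 and 33.6 FPKM. The falls were led by Scx, the tendon factor scleraxis, at 12.2, 2.14, 1.55 and 0.618 FPKM. Fosl1, an AP-1 subunit, was at 41.8, 15.7, 18.5 and 6.51 FPKM. Cebpa, a bZIP factor of adipocyte and myeloid cells, was at 22.2, 7.69, 6.37 and 4.62 FPKM. These 3 had fallen by day 5. Against day 0 of JGES, Scx differed by -0.21, Fosl1 by -0.48 and Irx2 by -0.99 at day 11, and against day 1 of SALL4-WT, Cebpa differed by -0.45. Irx2, a homeobox factor, was at 14.6, 5.64, 3.31 and 2.32 FPKM, and Grhl3, an epidermal factor, at 20.9, 11.997, 14.9 and 4.43 FPKM. Sox7, Osr1 and Hoxc9, given above, complete the 8 largest falls. Grhl3 at day 11 stood 2.28 above the day 0 JGES library and differed by -0.80 from day 1 of SALL4-WT.

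Some genes were highest in the middle of the course. In all, 89 of 7939 genes with at least 5 FPKM at day 5 or day 9 exceeded both day 1 and day 11 by at least 1. Rspo4, a secreted enhancer of WNT signalling, was at 3.47, 25.5, 59.1 and 7.55 FPKM. Ngfr, a neurotrophin receptor, was at 15.3, 36.0, 115 and 16.6 FPKM. Col13a1, a transmembrane collagen, was at 1.61, 3.53, 17.6 and 1.93 FPKM. All 3 peaked at day 9, as did Scd3, a stearoyl-CoA desaturase, at 0.0813, 0.644, 7.10 and 0.487 FPKM. Hand1, a bHLH factor of heart and trophoblast, was at 0.119, 12.9, 2.51 and 1.43 FPKM and peaked at day 5. Padi3, an epidermal peptidylarginine deiminase, was at 6.55, 44.9, 29.4 and 5.77 FPKM. Krtdap, a keratinocyte protein, was at 3.34, 52.4, 22.2 and 8.03 FPKM. Endou, a ribonuclease, was at 1.53, 13.6, 2.11 and 1.72 FPKM. They too were highest at day 5. Hand1 and Krtdap were still 1.12 and 1.06 above day 1 at day 11. Scd3 at day 9 differed by 0.65 from day 1 of SALL4-WT, under the threshold.

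Over the same intervals, the SALL4-WT libraries, which share none with the SALL4-delN12 course, gave PrE medians of 0.12, 0.15 and 0.57, where SALL4-delN12 gave 0.39, 1.46 and 2.58. With SALL4-WT, 3 of the 12 PrE genes rose by day 11, where 1230 (9.89%) of the 12435 genes compared in both forms rose and 1032 (8.30%) fell. Gata4 was at 1.04, 0.811, 0.964 and 1.51 FPKM there and Lama1 at 1.304, 1.65, 1.84 and 3.38 FPKM. Of the 100 genes of ParE-labelled cells, 14 rose and 2 fell with SALL4-WT by day 11, against 71 and 1 with SALL4-delN12. The summed level of the macrophage list was 416, 204, 171 and 195 FPKM with SALL4-WT, so that it went down where that of SALL4-delN12 went up. The matrix list had a median of 0.97 with SALL4-WT at day 11 against -0.27, and the cell cycle list -1.99 against -0.65. With 1 library a day, none of these differences between the forms was tested.

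Part of the course was common to both forms. Across the 12435 genes compared in both forms, the differences at day 11 had a Pearson r of 0.58 and a Spearman rho of 0.56, as a description across genes, which are not independent replicates. Of the 1062 of them that rose with SALL4-delN12 and the 1230 with SALL4-WT, 577 were shared, or 54.3% of the first and 46.9% of the second. Of the 528 and 1032 that fell, 209 were shared, or 39.6% and 20.3%. Apoe, for one, was at 149, 725, 1226 and 1863 FPKM with SALL4-WT. Genes under 1 FPKM at days 1 and 11 with SALL4-WT, such as Sox17 and Foxa2, were left out of the shares above. Thus 1062 of the 1316 genes that rose with SALL4-delN12 were counted there, and genes that rose only with that form are under-represented. Day 1 was not the same in both forms, since 484 of 12413 genes were higher (3.90%) and 642 lower (5.17%) with SALL4-delN12. Krt8 was at 9.79 FPKM at day 1 with SALL4-WT, against 141 FPKM. Cldn4 was at 44.6 FPKM against 260.5 FPKM.

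**Figure D3:**
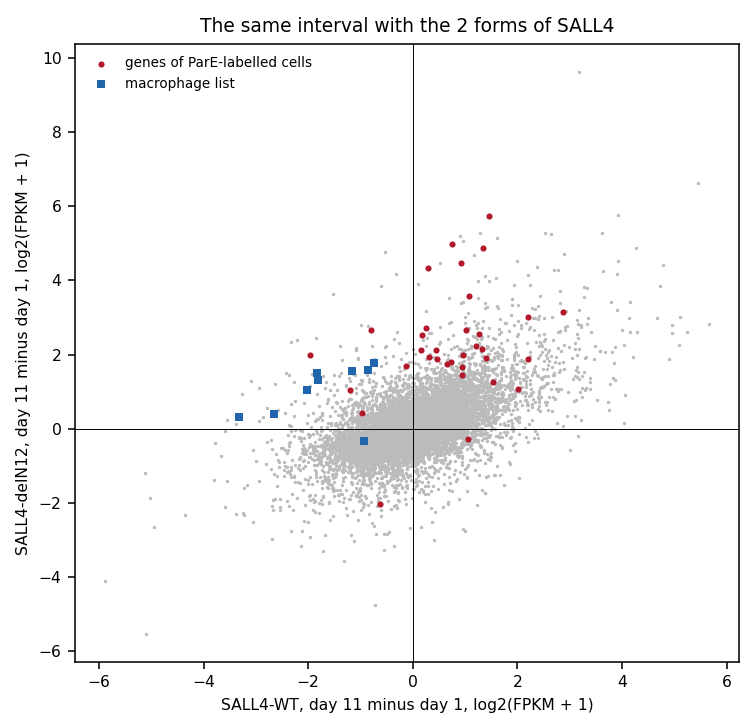
Each point is 1 of the 12435 genes compared in both forms, with the difference between day 11 and day 1 for SALL4-WT on the x axis and for SALL4-delN12 on the y axis, in log2(FPKM + 1). Genes of the ParE-labelled list that could be compared in both, 34 of the 100, and macrophage genes are marked; the macrophage genes lie left of 0 on the SALL4-WT axis.

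Promoter peaks were counted for the genes that rose or fell by day 11. ATAC-seq peaks, which mark open chromatin, were taken within 2000 bases of a GENCODE start site, which 12397 of the 13105 genes compared at day 11 had. At day 1, 61.6% of the 1256 genes that rose had a promoter peak, beside 88.4% of all genes and 79.6% of the 538 that fell. At day 11 these shares were 77.9%, 91.5% and 80.9%. A peak at day 11 but not at day 1 was found in 18.4% of the genes that rose, 4.35% of all and 6.13% of those that fell. These are shares of the whole groups, and the genes that rose more often lacked a peak at day 1. A peak at day 1 but not at day 11 was found in 2.15%, 1.22% and 4.83%. In MEFs the shares with a promoter peak were 78.8%, 93.1% and 88.7%, from a set of 125470 peaks against 94828 at day 1 and 78517 at day 11. Each is 1 library, so no test is given. A gene that rose was more often low at day 1 by the way it was chosen, so the shares were also taken over genes with at least 1 FPKM at day 1, a choice made after seeing the data. At day 1 the share was then 76.9% of 610 genes that rose, 92.0% of all 11122 and 79.6% of the 538 that fell, and at day 11 it was 87.4%, 93.5% and 80.9%. A peak at day 11 but not at day 1 was found in 12.5%, 2.59% and 6.13% of them.

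At day 6, H3K27ac, a mark of active promoters and enhancers, had a promoter peak at 66.7% of the genes that rose, 87.4% of all and 73.4% of those that fell. Peaks of SALL4 in SALL4-delN12 cells lay at 38.7% of the genes that rose, 61.5% of all and 46.7% of those that fell. Over genes with at least 1 FPKM at day 1 the shares of those that rose were 79.2% for H3K27ac and 48.4% for SALL4, beside 90.1% and 64.3% of all. With that filter, genes that fell stood at 73.4% and 46.7%, below those that rose and not above them. Among the 12 PrE genes, Gata6, Lama1, Dab2 and Klf4 had promoter peaks of SALL4, of H3K27ac and of ATAC-seq on each day. Gata4 and Foxa2 had a promoter ATAC peak in MEFs and none at day 1, after which Gata4 had one at days 5 and 11 but not at day 9 and Foxa2 had one at days 5, 9 and 11. Pitx1 had one at day 11 only. Pth1r had one in MEFs and at days 1, 5 and 9 but none at day 11, when its RNA was highest. Sox17 had one in MEFs and on none of the 4 days. Cited1 and Chst15 had one on each day, and Eva1a on each day but day 9. S100g, which is not on the list, had one at day 9 only. Over the 250 bases printed above for Cited1 an ATAC peak lay on each day, whereas none lay over those of Pth1r, Foxa2 or S100g.

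**Figure D4:**
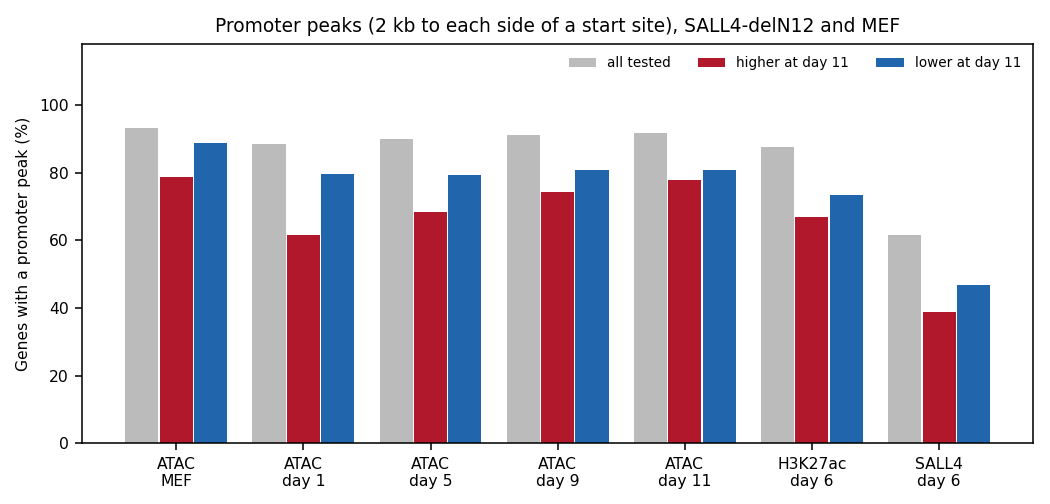
Bars give the percentage of genes with a peak within 2000 bases of a start site, for all genes compared at day 11, those that rose and those that fell, for ATAC-seq in MEFs and on days 1, 5, 9 and 11 and for H3K27ac and SALL4 at day 6. The bars of genes that rose go from 61.6% at day 1 to 77.9% at day 11 and stay under those of all genes.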

How the data were processed

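RNA of the 4 SALL4-delN12 libraries was sequenced as paired reads after mRNA selection. The submitters' processing notes name Trim Galore 0.6.4, HISAT2 2.2.1 and StringTie 2.2.1 with build mm10, and the authors deposited FPKM values per gene symbol, without counts. The authors deposited single-cell counts of the JGES cells as a table with cell labels, in which 19434 columns of cells were not used here. Peaks of ATAC-seq and CUT&Tag carry the MACS score, a scaled negative log10 of the p-value, as deposited by the authors, with a set for each sample. For CUT&Tag, the paper states that replicates were merged before peaks were called. The notes name Bowtie2 2.4.5, SAMtools 1.16.1 and MACS 1.4.2. The authors' own comparisons were not used.

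Differences were taken as log2(FPKM + 1), with a pseudocount of 1, among genes with FPKM of at least 1 in either library, and a gene was called past a difference of 1. Noncoding RNAs under 200 bases were left out. Each day is 1 library, so no test was run. Promoters are 2000 bases to each side of GENCODE vM21 basic start sites, and any overlap with a peak of at least 1 base counted. Named genes are the 10 largest rises and falls of each day, the 8 largest transcription factor rises and falls by family symbol and the 8 largest transient rises, with FPKM of at least 5, leaving out genes without a name, then the list members with the largest changes, of which some are not reported here. Krt8, Cldn4, Prrx1, Col1a1, Vim, Lamc1, Col4a1, Id1, Mki67, Afp and the NuRD core were named after their values were seen, as was the choice to add the list from ParE-labelled cells. The members and lists were chosen with earlier results of these data known. Software was Python 3.11.15, numpy 2.4.6, pandas 2.3.3 and matplotlib 3.10.9. Only the step that calls rises and falls was checked, on day 1 values multiplied by known factors without noise. Alternatives were a pseudocount of 0.1, scaling by the median ratio, other baselines, other FPKM filters, keeping short RNAs, and narrower or stricter promoter peaks.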

Additional observations from a re-analysis of the deposited data

Results flagged for a closer look

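Several results moved in opposite directions in the SALL4-delN12 and SALL4-WT courses over the same interval, with 1 library per day in each, and the difference between the forms was not tested. The median of the 10 measured macrophage genes at day 11 was 1.18 with SALL4-delN12 and -1.49 with SALL4-WT. Krtdap differed by 3.62 at day 5 and 2.42 at day 9, against -1.43 and -1.27 with SALL4-WT. Its FPKM with SALL4-WT was 1.69, 0, 0.115 and 1.26 on days 1, 5, 9 and 11. Scd3 at day 9 differed by 2.91 against -2.18, with SALL4-WT at 4.15, 0.270, 0.136 and 0.232 FPKM. Ngfr at day 5 differed by 1.19 against -1.38, with SALL4-WT at 9.07, 2.88, 7.84 and 5.57 FPKM. Rps28 at day 11 differed by 1.91 against -1.04, with SALL4-WT at 861, 596, 475 and 418 FPKM, and its reads may be shared with near-identical copies.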

How the results depend on the processing

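No paired analysis was possible because each day is 1 library. For a count, a change of over 1.5 times is given here, for a median or a gene a change of over 1.5-fold in the values, since no spread between replicates exists, and for a share of genes a value outside its 95% binomial interval. The cause of these shifts was not tested. Scaling by the median ratio (factors 0.98 to 1.02) and keeping short RNAs moved no count, median or named gene tried that far. Leaving out the FPKM filter cannot change the counts, since a difference of 1 needs at least 1 FPKM in the higher library. It moved no median tried that far. With a pseudocount of 0.1, 1235 genes were higher and 538 lower at day 5, 1465 and 655 at day 9, and the PrE median at day 11 was 3.28. With a filter of 5 FPKM, 403, 522 and 716 genes were higher on days 5, 9 and 11. Against day 1 of SALL4-WT, 813 genes were lower at day 5 and 819 at day 9, and the matrix median at day 11 was 0.42. Against day 0 of JGES, 2058, 2218 and 2446 genes were higher and 1693, 1813 and 1838 lower, the PrE median at day 11 was 3.19, the medians of the fibroblast identity genes that reached 1 FPKM were -0.59 at day 5 and -0.51 at day 11, and the matrix medians -1.56, -0.80 and -1.23. For the other lists the baselines were also exchanged at day 11, a choice made after seeing the data. With day 1 of SALL4-WT the median was 2.13 for epithelial, 1.43 for macrophage, -0.16 for cartilage and bone, -0.95 for HOX and -0.002 for BMP genes. Against day 0 of JGES it was 2.56, 4.11, -0.30, -0.97 and -0.23 for these, 1.84 for WNT targets, -0.88 for FGF, 0.062 for cholesterol synthesis, 1.72 for lysosomal and -0.51 for imprinted genes.

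Of 91 changes of named genes, 20 turned direction against day 0 of JGES and 5 against day 1 of SALL4-WT, and none under the pseudocount of 0.1. A further 40, 51 and 38 kept their direction but moved by over 1.5-fold against day 0 of JGES, against day 1 of SALL4-WT and under that pseudocount. Against day 0 of JGES those that turned were Ccl5 (1.46, 1.11 and 0.61 on days 5, 9 and 11), Ccl6 (1.17 and 1.12 on days 5 and 9), Cxcl2 (0.73 and 0.36 on days 5 and 9), Slc7a5 (1.70 and 0.39 on days 5 and 9), Thrsp (1.92 and 1.48 on days 9 and 11), Mcpt8 (0.61 at day 5), Gal (1.18 at day 9) and, at day 11, Car4 (-0.062), Dab2 (-0.15), Peg10 (-1.31), Grhl3 (2.28), Pde2a (1.20), Sema7a (0.60) and Sox7 (2.88). Those against day 1 of SALL4-WT were Gal (0.11 at day 9), Pde2a (0.26 at day 11), Slc7a5 (0.77 at day 5) and Thrsp (1.76 and 1.32 on days 9 and 11).

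With promoters of 1000 bases to each side, the shares for all genes, those that rose and those that fell were 86.2%, 55.7% and 74.7% for ATAC at day 1, 89.9%, 73.2% and 76.6% at day 11 and 58.3%, 33.7% and 41.1% for SALL4, and 86.2% of all and 63.8% of those that rose for H3K27ac. With peaks of a score of at least 100 they were 81.5%, 45.2% and 68.0%, then 86.2%, 62.4% and 67.1%, then 41.9%, 25.2% and 27.1%, and for H3K27ac 81.7%, 54.6% and 61.9%. With the peak center inside the promoter, H3K27ac was at 85.7% of all genes and SALL4 at 59.2% of all and 35.6% of those that rose. Over genes with at least 1 FPKM at day 1, an alternative chosen after seeing the data, the shares of all genes and of those that rose were 92.0% and 76.9% for ATAC at day 1, 93.5% and 87.4% at day 11, 90.1% and 79.2% for H3K27ac and 64.3% and 48.4% for SALL4.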
